A study of Rattus norvegicus with 32 samples.

Results

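Gene expression was compared between hippocampal and non-hippocampal tissue of rats given methamphetamine (METH). The comparison set 8 METH samples, 4 titled DG METH (dentate gyrus) and 4 titled CA METH (Ammon's horn, Cornu Ammonis), against 8 others, 4 titled NAc METH (nucleus accumbens) and 4 titled SVZ METH (subventricular zone). These 16 samples were chosen by title from the 32 RNA-seq samples of the series, and the other 16, the saline samples of the same 4 regions, served for comparison. All samples came from adult male Sprague-Dawley rats. METH rats received 4 intraperitoneal injections of 10 mg/kg METH 2 h apart, saline rats received saline on the same schedule, and tissue was collected 24 h after the last injection. The study's methods describe NAc and SVZ tissue as punched from frozen slices of the anterior brain, whereas DG and CA were scooped out of the posterior brain after the overlying cortex had been removed, so dissection method and brain region cannot be told apart. The regions may come from the same rats, which the labels do not say, and nothing says that replicates of a region are separate animals, so p-values measure the spread between these samples.

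The hippocampus is derived from the pallium, the dorsal part of the embryonic forebrain. Its principal cells, the granule neurons of the DG and the pyramidal neurons of the CA fields, are glutamatergic and are specified by basic helix-loop-helix factors of the Neurod family and their relatives. The NAc and the wall of the lateral ventricle that holds the SVZ arise from the subpallium, where homeodomain factors such as those of the Dlx, Lhx and Isl families specify GABAergic projection neurons, interneurons and cholinergic neurons. METH releases dopamine and other monoamines from nerve endings, and the NAc is a main target of dopamine neurons. The comparison asks how far the 2 kinds of tissue differed in treated animals, and the saline samples show whether the same difference was measured without the drug.

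The promoters of 4 genes are shown, each among the 10 largest changes with separated groups in its direction. Neurod6 and Neurod2, basic helix-loop-helix factors of glutamatergic neurons, stand on the hippocampal side. Chat and Slc18a3, which make and package acetylcholine, stand on the other. They are not the largest changes, and windows were missing for Klk8, Rspo2 and Bhlhe22. Each sequence is the RefSeq window of GRCr8 from 250 bases before to 50 bases after the gene's start, 300 bases written 5′ to 3′ on the gene's strand, which is the minus strand for each of them. The windows are chr4:86180106-86180405 for Neurod6, chr10:83824228-83824527 for Neurod2, chr16:7723367-7723666 for Chat and chr16:7722765-7723064 for Slc18a3. Capitals mark 3 strings searched on both strands that do not overlap one another here: CAGATG and CAGCTG, forms of the E-box that basic helix-loop-helix factors bind, and TGACGTCA, the full cAMP response element.
Neurod6: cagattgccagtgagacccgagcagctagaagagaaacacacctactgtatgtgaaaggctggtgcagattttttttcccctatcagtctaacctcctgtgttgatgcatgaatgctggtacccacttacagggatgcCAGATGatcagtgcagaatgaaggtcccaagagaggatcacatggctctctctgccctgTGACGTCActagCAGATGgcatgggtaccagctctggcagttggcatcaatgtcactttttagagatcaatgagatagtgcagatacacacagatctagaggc
Neurod2: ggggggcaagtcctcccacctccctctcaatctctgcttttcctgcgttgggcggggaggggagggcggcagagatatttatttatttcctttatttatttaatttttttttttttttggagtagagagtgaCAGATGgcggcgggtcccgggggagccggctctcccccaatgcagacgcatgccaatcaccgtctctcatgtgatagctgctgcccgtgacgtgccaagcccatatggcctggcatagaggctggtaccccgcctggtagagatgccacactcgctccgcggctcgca
Chat: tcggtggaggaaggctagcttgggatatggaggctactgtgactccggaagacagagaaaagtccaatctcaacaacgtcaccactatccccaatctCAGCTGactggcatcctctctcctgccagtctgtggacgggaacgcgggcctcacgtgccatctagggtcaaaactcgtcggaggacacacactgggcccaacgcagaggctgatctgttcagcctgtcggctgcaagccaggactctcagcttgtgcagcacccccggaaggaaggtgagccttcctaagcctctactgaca
Slc18a3: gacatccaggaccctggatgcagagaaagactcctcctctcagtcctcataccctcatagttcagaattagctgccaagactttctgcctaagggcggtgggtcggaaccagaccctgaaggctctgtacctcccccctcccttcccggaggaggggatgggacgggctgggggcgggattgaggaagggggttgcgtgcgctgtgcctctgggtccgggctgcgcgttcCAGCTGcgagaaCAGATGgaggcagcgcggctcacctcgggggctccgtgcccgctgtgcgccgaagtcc
The Neurod6 window held 2 CAGATG strings and 1 TGACGTCA, and the Neurod2 window held 1 CAGATG. The Slc18a3 window held 1 CAGATG and 1 CAGCTG, and the Chat window held 1 CAGCTG. The string CAGATG occurred in 16.3% of all 27457 windows, in 11.0% of the windows of tested genes, and in 15.6% and 13.8% of the windows of genes called higher and lower in the hippocampal samples. CAGCTG occurred in 15.1%, 16.6%, 18.5% and 26.3% of the same 4 sets, and TGACGTCA in 1.91%, 3.03%, 1.45% and 1.38%. Windows were matched by symbol for 10865 of 15615 tested genes, 276 of 421 called higher and 217 of 308 called lower. These are counts of letters in a window, given as a description.

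Each library held between 11802864 and 21869773 counts in the 16 METH samples, with a median of 14774356.5 in the hippocampal and 15768072 in the NAc and SVZ samples. Several libraries stood apart by their markers. NAc METH 3 held little striatal RNA, with Drd1 at 7.35 CPM (depth-scaled counts) where the other NAc libraries held 191 to 227, and DG METH 3 and SVZ METH 3 held choroid plexus RNA, with Ttr at 5372 and 7463 CPM where NAc METH 1 and NAc METH 4 held no read. Prox1, the defining factor of granule neurons, was at 204 to 313 CPM in DG METH 1, 2 and 4 and at 58.9 in DG METH 3, within the 52.4 to 159 of the CA libraries. The SVZ libraries also held Prox1, at 54.7 to 184 CPM, and the NAc libraries at 20.2 to 48.6, so it was not particular to the DG. Dcx, the marker of the migrating neuroblasts for which the SVZ is known, was at 145 CPM in SVZ METH 1 and at 21.1 to 32.9 in SVZ METH 2, 3 and 4, below every other METH library. In SVZ METH 2 and SVZ METH 4 Prkcd, which thalamic neurons express, reached 810 and 599 CPM. DG METH 1 and 2 carry the library numbers 14 and 15 in the file headers, which the headers also give to NAc and CA saline libraries. DG Sal 1 and 2 in turn carry 20 and 21, the numbers of NAc and CA METH 1 and 2. No label says what a number marks. If it marks a rat, headers and titles disagree on the treatment of these 4 DG libraries. The titles were followed here, an exchange of labels was not tested, and counts are also given without these libraries. The numbers 24 and 25 recur in the NAc, DG and CA METH libraries, and a recurring number may mark a shared rat, which no label says. The 4 SVZ METH libraries carry only 2 library numbers, 1669 for replicates 1 and 2 and 1670 for replicates 3 and 4, and may come from fewer than 4 animals. Names within the file headers were read as sequencing runs, lettered here, which no label states, and the study's methods name 2 sequencing batches. By these names NAc and CA METH libraries fell in runs B and C and DG METH in A and B. All SVZ METH libraries fell in a run of their own, so SVZ and run cannot be told apart.

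Hippocampal and other METH samples differed in 729 of 15615 tested genes, 4.67% of those tested. Of these, 421 (2.7%) were higher and 308 (1.97%) lower in the hippocampal samples. A gene was called where the adjusted p (edgeR quasi-likelihood test, Benjamini-Hochberg over all genes tested) was under 0.01 and the fold change over 2. Every hippocampal sample was above every other sample for 414 genes (2.65% of those tested) and below every other sample for 209 (1.34%), and 203 and 63 of these were also called. The median log2 fold change of all genes was -0.08, with a median standard error of 0.14. The first principal component held 34.9% of the variance and the second 17.9%. Hippocampal samples scored 22.7 to 41.7 on the first component except DG METH 3, which scored -0.95, and the NAc and SVZ samples scored -60.0 to -8.11. Without DG METH 1 and 2 the count fell to 399 genes, 278 higher and 121 lower. The balance of directions moved with other libraries too, to 460 higher and 451 lower without DG METH 3 and to 433 higher and 468 lower without DG METH 3 and SVZ METH 3. With the SVZ METH libraries of each number summed, 784 genes were called.

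**Figure D1:**
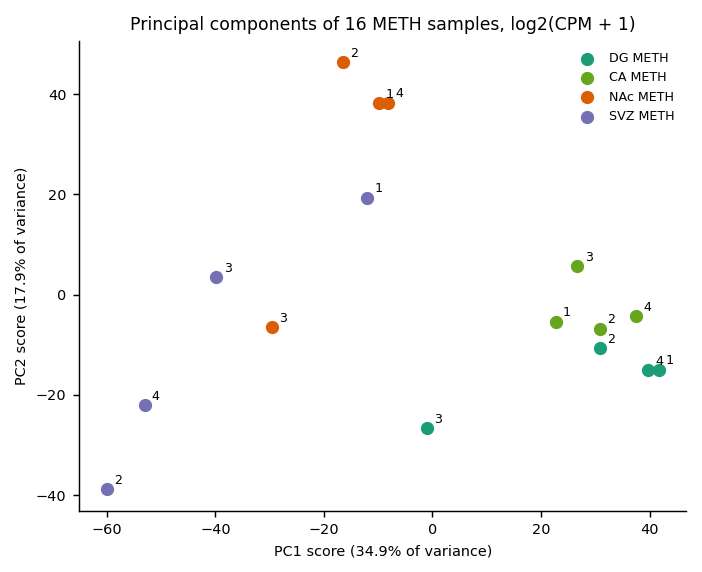
Scores of the 16 METH samples on the first component (horizontal, 34.9% of the variance) and the second (vertical, 17.9%) of log2(CPM + 1), in arbitrary units, with one point a sample, coloured by region and numbered by replicate. The 8 hippocampal samples lie to the right of the 8 NAc and SVZ samples, and DG METH 3 lies nearest to them.

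Among called genes whose groups did not overlap and whose mean was at least 5 CPM in the hippocampal samples, the largest differences on the hippocampal side were in Klk8, Rspo2, Lyzl4 and Neurod6. Klk8 (chromosome 1, 99734993 to 99742009, plus strand, rn6) encodes neuropsin, a secreted serine protease that acts on the matrix around synapses. Its level ran from 1.89 to 12.2 CPM with a median of 5.21 in the hippocampal samples, whereas 6 of the 8 other samples held no read and NAc METH 2 and SVZ METH 1 held 1 read each (0.0861 and 0.0534 CPM). The groups did not overlap, DG samples were mostly above CA samples, and the ratio of 764 reads to 2, scaled by depth, was 416 with an exact 95% interval of 115 to 3440 that covers counting error only. The edgeR adjusted p was 6.94e-07. The neighbouring kallikrein Klk11, chosen after its values were seen, held 308 reads against 1, a ratio of 336 with an interval of 59.8 to 13300. Kallikreins are related genes, and whether reads were split between them was not tested.

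Rspo2 (chromosome 7, 81924050 to 82059789, minus strand, rn6) encodes R-spondin 2, a secreted protein that strengthens Wnt signals at the receptor. It was measured at 46.1 to 112 CPM, median 64.8, in the hippocampal samples and at 0.31 to 12.2 CPM, median 1.28, in the others. Its highest value outside the hippocampus was in SVZ METH 1, and the groups did not overlap. The log2 fold change was 4.91 ± 0.61 (SE, n = 8 against 8, edgeR adjusted p = 8.93e-05). Htr5b (chromosome 13, 37479758 to 37492680), a serotonin receptor, ran from 4.69 to 31.9 CPM, median 10.8, against 0.21 to 0.94, median 0.66. The groups again lay apart, at a log2 fold change of 4.39 ± 0.45 (edgeR adjusted p = 2.15e-05). Cabp7 (chromosome 14, 84968130 to 84978255), a calcium-binding protein, ran from 90.8 to 324 CPM, median 170, against 5.70 to 21.2, median 17.1. All 4 DG samples were above all CA samples, and all CA samples above the rest, with a log2 fold change of 3.67 ± 0.23 (edgeR adjusted p = 6.94e-07). Cabp7 overlaps Zmat5 on the other strand, and without strand the reads of the overlap cannot be assigned. Lyzl4 at 4.85 ± 0.64, the sodium-proton exchanger Slc9a4 at 4.03 ± 0.39 and the angiotensin-(1-7) receptor Mas1 at 3.63 ± 0.51 were also among the 10 largest under that limit.

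**Figure D2:**
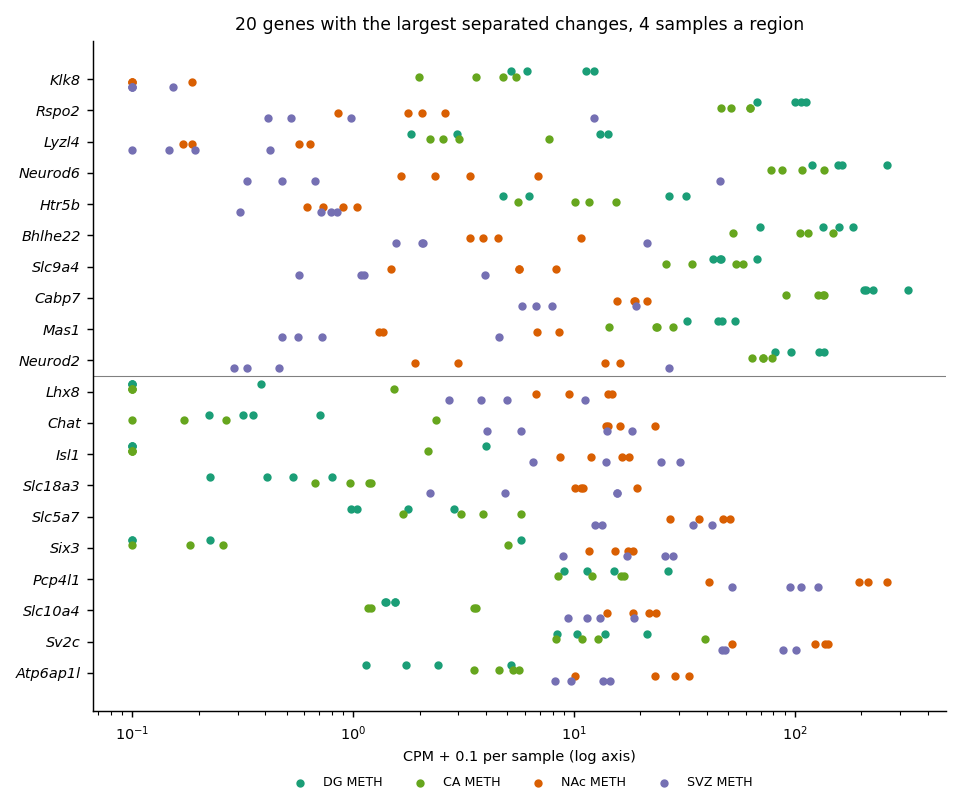
Level of the genes with the largest changes in each direction, as CPM + 0.1 on a horizontal log axis, with one point for each of the 16 METH samples, coloured by region. Genes are on the vertical axis, and hippocampal points lie to the right of all others for Klk8, Rspo2, Neurod6 and the other genes called higher, and to the left of all others for Lhx8, Chat, Slc18a3 and the other genes called lower. The genes were chosen among those with separated groups.

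Genes of acetylcholine handling were among those lower in the hippocampal samples. Chat (chromosome 16, 8577840 to 8686131, minus strand, rn6), the enzyme that makes acetylcholine, ran from 0 to 2.27 CPM, median 0.19, in the hippocampal samples and from 3.95 to 23.2 CPM, median 14.1, in the others. The highest hippocampal value was in CA METH 3 and the lowest of the others in SVZ METH 1, and the groups did not overlap. The log2 fold change was -4.83 ± 0.61 (edgeR adjusted p = 0.000116). Slc18a3 (8682669 to 8685529 on the same strand), the vesicular acetylcholine transporter whose gene lies inside the Chat locus, ran from 0.13 to 1.10 CPM, median 0.64, against 2.14 to 19.2, median 10.8. Its log2 fold change was -4.16 ± 0.43 (edgeR adjusted p = 2.29e-05), and reads of the shared stretch cannot be divided between it and Chat. Slc5a7 (chromosome 9, 5294381 to 5330815), the choline transporter that refills the nerve ending, lies elsewhere in the genome. Its level ran from 0.88 to 5.64 CPM, median 2.22, against 12.3 to 51.0, median 35.6, with no overlap. It had a log2 fold change of -3.75 ± 0.35 (edgeR adjusted p = 1.48e-05). Slc10a4, a transporter of cholinergic and monoaminergic vesicles, ran from 1.07 to 3.51 CPM against 9.29 to 23.3, a log2 fold change of -3.16 ± 0.26 (edgeR adjusted p = 8.49e-06). In bulk tissue, fewer cholinergic cells and less of these RNAs per cell cannot be told apart.

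Among 19 tested genes of the acetylcholine list 4 were lower and 3 higher in the hippocampal samples, with a median log2 fold change of -0.21 beside -0.08 for all genes. Counts in this and the following lists are to be read against the 2.7% and 1.97% of all tested genes called higher and lower. The lists were chosen with earlier results of these data known, so a count above these shares is description and no independent support. Without SVZ METH 1 the acetylcholine list held 5 higher calls. The fourth lower gene was Ache, which breaks acetylcholine down, at -1.03. The 3 higher genes were receptors: the muscarinic Chrm3 at 1.6 and the nicotinic Chrna7 at 1.59 and Chrna2 at 1.20. The hippocampal samples held lower levels of the transcripts that make and recycle the transmitter and higher levels of these 3 of its receptors. The septal and basal forebrain list, which shares Chat, Slc18a3 and Slc5a7 with it, held 9 lower and 1 higher of 12 tested, at a median of -2.74. Its summed level ran from 97.5 to 158 CPM in hippocampal and from 147 to 251 CPM in the other samples.

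Transcription factors divided along the pallial and subpallial lists. Of 28 tested pallial factors 7 were called higher and 1 lower, 26 had a positive log2 fold change, and the list's median was 1.26. Without SVZ METH 1, 15 were called higher. Neurod6 (chromosome 4, 85911861 to 85915099, minus strand, rn6), whose promoter is printed above, ran from 78.3 to 260 CPM, median 127, against 0.23 to 45.5, median 1.89. The value of 45.5 was that of SVZ METH 1, and no other sample outside the hippocampus passed 6.76 CPM. Its log2 fold change was 4.41 ± 0.86 (edgeR adjusted p = 0.00203). Bhlhe22 (chromosome 2, 102685513 to 102688624), a related repressor of pallial neurons, ran from 52.2 to 184 CPM, median 124, against 1.46 to 21.3, median 3.51, with a log2 fold change of 4.30 ± 0.56 (edgeR adjusted p = 0.000135). Neurod1, needed for granule neurons of the DG, had a log2 fold change of 3.13 ± 0.59 (edgeR adjusted p = 0.00165).

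Neurod2 (chromosome 10, 86280892 to 86282693, minus strand, rn6), the last of the printed factors, ran from 64.0 to 135 CPM, median 80.0, against 0.19 to 26.8, median 2.34. The groups did not overlap, and the log2 fold change was 3.53 ± 0.80 (edgeR adjusted p = 0.00533). The call for Neurod2 was lost when NAc METH 2, NAc METH 4, DG METH 2, DG METH 4, CA METH 2 or CA METH 4 was left out, at log2 fold changes of 3.37 to 3.70. The neighbouring gene Ppp1r1b (86303727 to 86312762, plus strand) went in the opposite direction. It encodes DARPP-32, the dopamine-regulated phosphatase inhibitor of striatal projection neurons, and ran from 46.4 to 164 CPM, median 75.5, in the hippocampal samples and from 42.0 to 1078 CPM, median 664, in the others. Its groups overlapped through NAc METH 3 at 42.0 and SVZ METH 2 at 71.2 CPM, and the log2 fold change was -2.77 ± 0.61 (edgeR adjusted p = 0.00445). The call for Ppp1r1b was lost without DG METH 1, DG METH 2, DG METH 4, CA METH 1, CA METH 2 or CA METH 4, at -2.77 to -2.66. The other called pallial factors were Nfib at 1.76, Zbtb18 at 2.05 and Satb1 at 1.01, and the single lower member was Dach1 at -2.25 ± 0.45 (edgeR adjusted p = 0.00229).

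Of 28 tested subpallial and striatal factors 12 were called lower and 1 higher, with a median of -1.26. Lhx8 (chromosome 2, 260574190 to 260596777, minus strand, rn6), a LIM homeodomain factor of forebrain cholinergic neurons, was not detected in 6 of 8 hippocampal samples and reached 1.43 CPM in CA METH 3, against 2.62 to 14.8 CPM, median 8.01, in the others. The groups did not overlap, and the log2 fold change was -5.38 ± 0.76 (edgeR adjusted p = 0.000219). Isl1, a LIM homeodomain factor of striatal and cholinergic neurons, was likewise without a read in 6 hippocampal samples and reached 3.89 CPM in DG METH 3, against 6.41 to 30.0 CPM elsewhere, at -4.36 ± 0.88 (edgeR adjusted p = 0.00254). Nkx2-1 at -2.66, Dlx5 at -2.02, Meis1 at -1.81 and the retinoic acid receptor Rarb at -2.38 were also lower. Pbx3, a partner of the Meis factors outside this list, ran from 5.03 to 15.3 CPM against 29.9 to 77.6, at -2.17 ± 0.20 (edgeR adjusted p = 1.24e-05), and overlaps Mapkap1 on the other strand. The single higher member was Nr4a2, an orphan nuclear receptor that also stands in the activity-induced, cortical and CA pyramidal lists. Without DG METH 1 and 2 the pallial list held 4 higher and 0 lower calls and the subpallial list 1 higher and 5 lower.

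Markers of striatal projection neurons were the list with the most genes called lower. Of 28 tested, 19 were lower in the hippocampal samples and 0 higher, with a median of -2.27. Drd1 (chromosome 17, 11101306 to 11103541, plus strand, rn6), the dopamine receptor of direct-pathway neurons, ran from 3.59 to 21.7 CPM, median 10.0, in the hippocampal samples. It ran from 7.35 to 227 CPM, median 106, in the others. The lowest of these was NAc METH 3 and the next SVZ METH 2 at 20.0, so the groups overlapped, and the log2 fold change was -3.32 ± 0.59 (edgeR adjusted p = 0.00112). Drd2, the receptor of indirect-pathway neurons, was at -3.69 ± 0.65 (edgeR adjusted p = 0.00106), the substance P precursor Tac1 at -3.09 ± 0.56 (edgeR adjusted p = 0.00126) and Gnal, the G protein subunit that couples Drd1 to adenylyl cyclase, at -2.35 ± 0.35 (edgeR adjusted p = 0.000311). The list's summed level ran from 1080 to 2182 CPM in hippocampal and from 1042 to 8634 CPM in the other samples. Fewer calls were made without DG METH 1 and 2, when 5 members were lower, and without CA METH 4, when 12 were, and 22 were lower without NAc METH 3 and DG METH 3.

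Markers of hippocampal principal neurons were called in the higher direction. Of 21 tested CA pyramidal markers 9 were higher and 0 lower, with a median of 1.38, among them Galnt3 at 2.89, Cpne6 at 2.44 and the serotonin receptor Htr1a at 2.43. Of 18 tested dentate granule markers 3 were higher and 0 lower: the synaptic organiser C1ql3 at 2.78, Il16 at 2.7 and the channel Trpc6 at 1.75. Without DG METH 3 or without SVZ METH 3 the granule list held 5 higher calls. The summed CA pyramidal level ran from 1486 to 2764 CPM against 450 to 1631, and the summed granule level from 489 to 1430 against 427 to 756. The pyramidal sum did not set CA above DG samples, with medians of 1902 CPM in CA and 2038 in DG. The granule sum had medians of 816 CPM in CA and 1153 in DG, with overlapping ranges. The DG libraries were split on the pyramidal sum. DG METH 2 and 4, at 2563 and 2764 CPM, lay above the CA range of 1775 to 2088, and DG METH 1 and 3, at 1513 and 1486, below it. The marker Wfs1 alone was at 900 and 703 CPM in DG METH 2 and 4 and at 55.1 and 132 in DG METH 1 and 3. It was also at 540, 910 and 523 CPM in NAc METH 1, 2 and 4. Prox1, chosen after its values were seen, had a log2 fold change of 1.24 ± 0.36 that missed the threshold (edgeR adjusted p = 0.0192).

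Other cell types moved with the comparison to different degrees. None of 14 oligodendrocyte markers was called, yet 0 of 14 were positive and the median was -1.05, with sums of 2670 to 16330 CPM (median 4596) against 6791 to 30710 (median 10460). Without DG METH 3 and SVZ METH 3, 8 of them were called lower, against 4 without DG METH 3 alone, 0 without SVZ METH 3 alone, 2 without CA METH 1 and 1 without NAc METH 3 and DG METH 3. Of 14 thalamic markers 6 were lower and 0 higher at a median of -1.72, with sums of 193 to 501 CPM against 158 to 2836, and the count was 4 without SVZ METH 2 and 4, 3 without CA METH 2 or without CA METH 4, and 1 without DG METH 1 and 2. Astrocyte sums ran from 5085 to 6336 CPM against 4820 to 7452, with a list median of -0.11, and the microglia list had a median of -0.21. The endothelial, ependymal, choroid plexus and neuroblast lists, of 10, 15, 13 and 17 tested genes, also held 0 calls, at medians of 0.21, -0.05, 0.92 and -0.72. The choroid plexus median was -1.63 without DG METH 3, -0.17 without CA METH 2 and 2.93 without SVZ METH 3, and the ependymal median ran from -0.82 without DG METH 3 to 0.36 without SVZ METH 3, so neither list had a settled direction. The neuroblast median was -0.22 without SVZ METH 1, and 4 neuroblast genes were called lower without SVZ METH 2 and 4. Of 14 cortical markers 1 was higher and 1 lower, with 5 higher without SVZ METH 1 and 3 lower without NAc METH 3, and of 14 interneuron markers Cck alone was called, higher at 1.45. The mitochondrially encoded genes, 13 tested, held 0 calls at a median of -0.33. The part of these cell types in the gene differences was not tested.

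**Figure D3:**
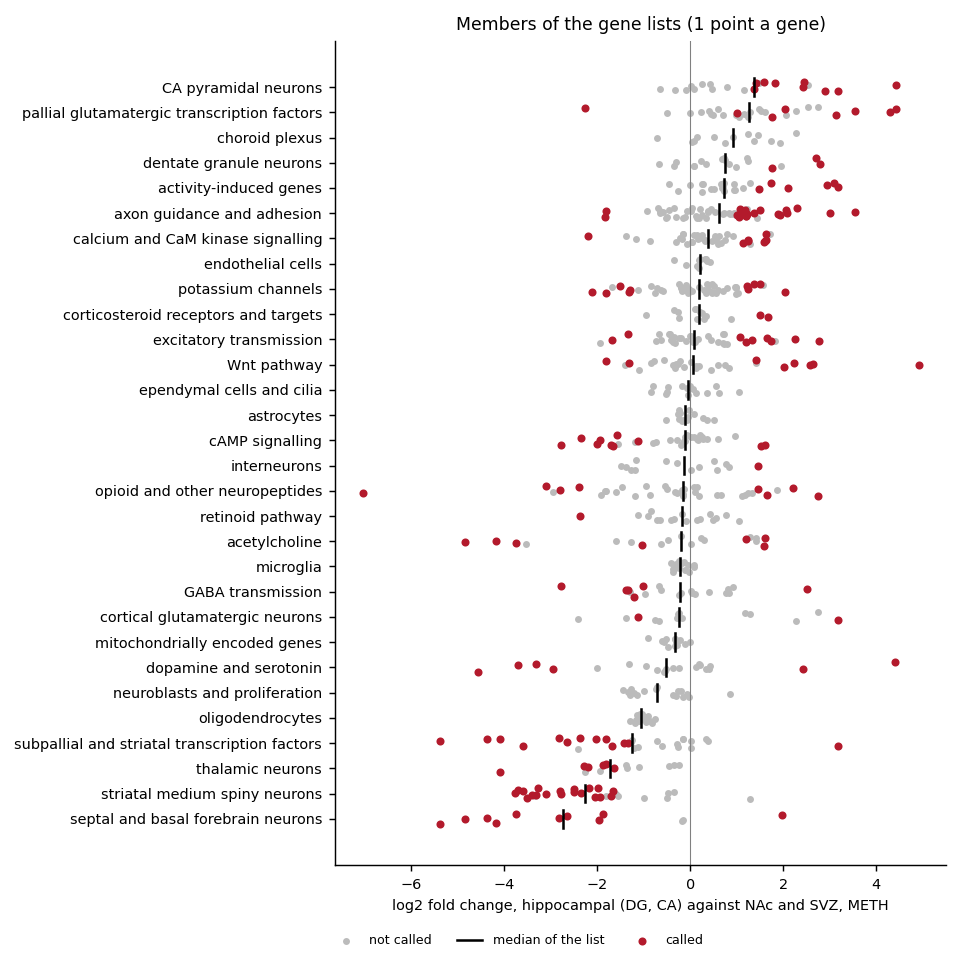
Log2 fold change, hippocampal against NAc and SVZ METH samples, of every tested gene of each list, with one point a gene, coloured where called, and the list's median marked. Values are on the horizontal axis, where the striatal, thalamic and septal lists lie mostly left of 0, the pallial factor and CA pyramidal lists mostly right, and the astrocyte and microglia lists near 0.

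Where called, genes of glutamate transmission were mostly higher and those of GABA transmission mostly lower in the hippocampal samples. Of 36 excitatory genes 7 were higher and 2 lower, at a median of 0.08, and 4 were higher without DG METH 1 and 2. Slc17a7, the vesicular glutamate transporter of pallial neurons, ran from 1334 to 2009 CPM, median 1516, against 26.0 to 482, median 177. The groups did not overlap, at a log2 fold change of 2.76 ± 0.56 (edgeR adjusted p = 0.00262). The AMPA receptor subunit Gria1 at 1.34, its auxiliary subunits Shisa6 at 2.25, Cacng8 at 1.66 and Cnih2 at 1.20, and the NMDA receptor subunit Grin2a at 1.74 were higher, whereas the metabotropic receptor Grm4 at -1.67 and the auxiliary subunit Cacng5 at -1.33 were lower. Of 20 GABA genes 5 were lower and 1 higher, and 3 were lower without NAc METH 2, DG METH 2, DG METH 4, CA METH 1 or SVZ METH 4. Gad2, a GABA-synthesising enzyme, ran from 237 to 401 CPM, median 294, against 507 to 1266, median 807. Every hippocampal sample was below every other, at -1.38 ± 0.16 (edgeR adjusted p = 6.65e-05). The second such enzyme Gad1 at -1.02 ± 0.14 and the vesicular GABA transporter Slc32a1 at -1.34 ± 0.14 were also lower, and the receptor subunit Gabra5 was higher at 2.52 ± 0.34 (edgeR adjusted p = 0.00016), overlapping Luzp2 on the other strand. The lower call of Gabre rested on NAc METH 3, at 24.4 CPM: its log2 fold change was -2.79 with that library and -1.68 without, where the call was lost, and it was lost without 14 of the 16 libraries.

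Of 21 dopamine and serotonin genes 4 were lower and 2 higher, and 2 were lower without DG METH 1 and 2. The lower ones were receptors: Drd1, Drd2, Htr1d at -2.95 and Drd3 at -4.56 ± 0.49 (edgeR adjusted p = 3.38e-05), a receptor of the NAc that held 0 to 0.33 CPM in hippocampal and 1.18 to 6.54 CPM in the other samples and overlaps Gramd1c on the other strand. The higher ones were the serotonin receptors Htr5b and Htr1a. Of 36 neuropeptide genes 4 were higher, among them the synaptic pentraxin Nptx1 at 2.75 and the somatostatin receptors Sstr4 at 2.21 and Sstr3 at 1.66, and 4 were lower, among them the opioid precursor Penk at -2.80 and the kappa opioid receptor Oprk1 at -2.39. Avp, the vasopressin precursor, was the fourth of these at -7.04 ± 1.75 (edgeR adjusted p = 0.0088). It held 676 CPM in NAc METH 3 and its log2 fold change without that library was -2.64, where the call was lost, as it was without 12 of the 16 libraries. Without DG METH 1 and 2 no neuropeptide gene was called lower, and 2 were without DG METH 1, DG METH 2, DG METH 4, CA METH 1, CA METH 2, CA METH 4 or SVZ METH 3. Without SVZ METH 1, 7 were called higher.

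Of 34 cAMP genes 8 were lower, 2 higher and 24 not called, at a median of -0.12 beside -0.08 for all genes. The lower calls were 4 without DG METH 4, CA METH 2 or CA METH 4 and 5 without NAc METH 2 or CA METH 1. The lower ones included Gnal, the adenylyl cyclase Adcy5 at -1.65 and the phosphodiesterases Pde10a at -1.95, Pde7b at -1.99 and Pde1b at -1.70, which striatal neurons express, and the higher ones were the calcium-activated cyclase Adcy1 at 1.61 and Pde1a at 1.53. Of 38 calcium and CaM kinase genes 7 were higher and 1 lower, at a median of 0.39. The kinase Camk2a at 1.61, the calmodulin-binding Nrgn at 1.58 and the ryanodine receptor Ryr2 at 1.63 were higher. Prkcd, the lower one at -2.19 ± 0.47 (edgeR adjusted p = 0.00381), was highest in the SVZ samples, at 79.4 to 810 CPM against 8.57 to 77.4 in the hippocampal samples, and its call was lost without CA METH 2 at -2.10 and without CA METH 4 at -2.13. With the SVZ samples left out and the sequencing run in the fit, its log2 fold change was 0.22. Of 47 potassium channel genes, at a median of 0.20, 5 were higher (9 without SVZ METH 1), led by the G-protein-gated Kcnj6 at 2.03, and 5 lower, led by Kcna5 at -2.12, which was not called without DG METH 4 at -2.05 or CA METH 2 at -2.01. Without DG METH 1 and 2 the cAMP list held 0 higher and 1 lower call, and 2 potassium channel genes were lower.

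Axon guidance and adhesion genes were called mostly on the hippocampal side, 17 higher and 2 lower of 54 tested, at a median of 0.62. The semaphorin receptor Nrp1 at 2.29, the Nogo receptor Rtn4r at 2.08, the guidance cue Slit1 at 2.06 and the adhesion protein Ntng2 at 1.93 were among them. Robo3, a Slit receptor relative, was higher at 3.55 ± 0.62 (edgeR adjusted p = 0.000976) and differed between the hippocampal regions themselves, at log2 fold changes of 4.58 and 5.46 for DG against NAc and SVZ and of 1.64 and 2.52 for CA, and only the DG pairs were called. The guidance cue Ntn1 was lower at -1.82, and the second lower call, Sema3f, was lost without 12 of the 16 libraries. Of 28 Wnt genes 6 were higher, including Rspo2, the ligands Wnt4 at 2.64 and Wnt2 at 2.58 and the secreted Dkk3 at 2.24, and 2 lower, the receptor Fzd5 at -1.32 and Tcf7l2 at -1.80, the latter also a thalamic marker and not called without CA METH 4 at -1.76. Without DG METH 1 and 2 the guidance list held 10 higher and 1 lower, and the Wnt list 4 higher and 0 lower.

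Of 25 activity-induced genes, which neurons transcribe within minutes to hours of firing, 6 were higher and 0 lower in the hippocampal samples, 22 were positive, and the median was 0.73. Bdnf (chromosome 3, 100768637 to 100819210, plus strand, rn6), a neurotrophin, ran from 30.3 to 62.2 CPM, median 34.6, against 1.21 to 12.0, median 3.24. The groups did not overlap, and the log2 fold change was 2.94 ± 0.44 (edgeR adjusted p = 0.000352). The orphan nuclear receptors Nr4a2 at 3.18 ± 0.33 (edgeR adjusted p = 2.43e-05) and Nr4a3 at 3.10 ± 0.39 (edgeR adjusted p = 0.000105), Fosl2 at 2.10, the phosphatase Dusp6 at 1.74 and Arc at 1.49 were the others. The first-wave factors Fos at 0.27, Fosb at 0.52 and Egr1 at 0.68 were not called (edgeR adjusted p = 0.525, 0.273 and 0.173). Of 14 corticosteroid genes the mineralocorticoid receptor Nr3c2 at 1.49 ± 0.19 (edgeR adjusted p = 0.000125) and Zbtb16 at 1.66 were higher and 0 lower, and of 17 retinoid genes Rarb alone was called. Genes named in the study for their expression, which were picked on these samples and are no independent evidence of a direction, held 3 higher and 6 lower calls of 23 tested, 5 higher without SVZ METH 1, and 0 in either direction without DG METH 1 and 2. Nrn1, a neuritogenic factor among them, had a log2 fold change of 1.88 ± 0.39 (edgeR adjusted p = 0.00285).

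The 4 pairs of regions, fitted together, gave 484 called genes for DG against NAc (3.1% of those tested), 615 for DG against SVZ (3.94%), 199 for CA against NAc (1.27%) and 610 for CA against SVZ (3.91%). The higher and lower calls were 247 (1.58%) and 237 (1.52%), 381 (2.44%) and 234 (1.5%), 128 (0.82%) and 71 (0.455%), and 335 (2.15%) and 275 (1.76%), in that order of pairs. The pairs share samples, and of the 729 genes called in the whole comparison 716 had the same sign in all pairs. In all 4 pairs 64 genes were called higher (0.41% of those tested) and 16 lower (0.102%). The higher ones included Klk8, Rspo2, Htr5b, Bhlhe22, Cabp7, Slc9a4 and Nr4a2. The 16 lower ones, listed after their values were seen, included Chat, Drd3, Slc18a3, Slc5a7, Spp1, Pcp4l1, Slc10a4, Nmu, Rasgrp2, Pbx3, Cacna2d2, Epb41, Spock3, Rcan3 and Gad2. The voltage-gated calcium channel subunit Cacna2d2 ran from 29.2 to 75.0 CPM against 115 to 208, and its difference was -1.57 ± 0.15 (edgeR adjusted p = 1.75e-05). Neurod6 was called in none of the single pairs, at log2 fold changes of 3.14 to 5.68. Of the genes called higher, 127 were called against SVZ in at least 1 pair and against NAc in none, and 35 against NAc and not SVZ. Of those called lower the counts were 73 and 75. Cck was of the second kind, at 2.5 and 3.34 for DG and CA against NAc and -0.45 and 0.39 against SVZ.

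**Figure D4:**
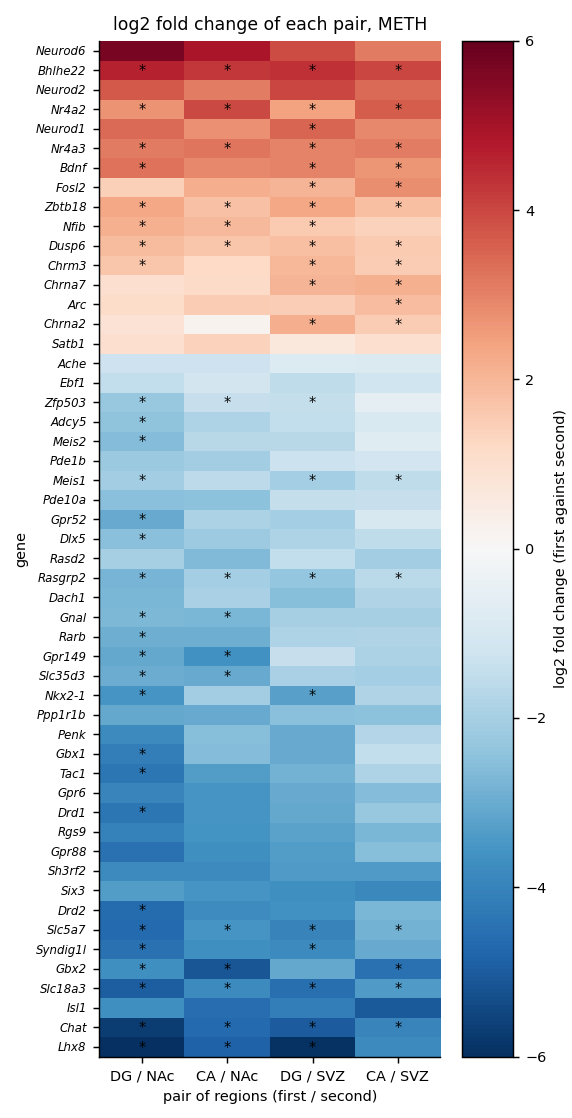
Log2 fold change of 52 called genes of the transcription factor, acetylcholine, striatal and activity-induced lists (vertical) in each of the 4 pairs of a hippocampal with another region (horizontal), on a colour scale that ends at 6 in both directions, with an asterisk where the pair was called. Bhlhe22, Nr4a2, Chat and Slc5a7 are called in all pairs and Neurod6 in none, and Lhx8 passes the end of the scale in DG against NAc at -6.91.

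In saline rats the same contrast called 155 of 15515 genes (0.999%), 96 higher (0.619%) and 59 lower (0.38%). That count moved with single libraries, from 0 without NAc Sal 1 to 594 without DG Sal 3, and left the range of 1.5 times in 15 of 16 such fits. Of the 729 METH calls 714 were tested in saline, 711 had the same sign, 625 had an unadjusted p under 0.05 with that sign, and 132 were called. Their median absolute log2 fold change was 1.58 in METH and 1.34 in saline. The genes were chosen by their METH calls, which by itself favours a larger METH value. Neurod6 was at 4.41 and 4.09, Klk8 at 7.93 and 6.63, Chat at -4.83 and -4.03, Drd1 at -3.32 and -3.37 and Bdnf at 2.94 and 3.10, in METH and saline. Across the 15323 genes tested in both, Pearson's r of the 2 sets of log2 fold changes was 0.82, which is over genes and not independent replicates.

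The difference of the contrast between METH and saline called 0 of 16122 genes with edgeR and 0 with DESeq2. With edgeR 705 genes had an unadjusted p under 0.05, 315 higher and 390 lower, the smallest adjusted p was 0.965, and the median standard error of the difference was 0.21. Differences of the size of this error were thus not detectable, and neither were larger ones. Tsen15, at -0.59 ± 0.14 (SE), had an edgeR adjusted p of 0.965, and a call also needed a fold change over 2. Without DG METH 1 and 2 and DG Sal 1 and 2, 828 genes had an unadjusted p under 0.05 and 0 were called. With 1 library left out that number ran from 490 (without DG Sal 4) to 1711 (without SVZ Sal 1). With RUVr it was 1478 for 1 factor and 1810 for 2 factors. The smallest adjusted p with RUVr was 0.0375 for 1 factor and 0.00962 for 2 factors, again with 0 genes past both thresholds. Among the genes with the smallest p, Zfp189, a zinc finger gene, had a log2 fold change of 1.02 in METH and 0.08 in saline, a difference of 0.95 (edgeR adjusted p = 0.965). Its call in METH was lost without NAc METH 3, DG METH 1, DG METH 4, CA METH 2, CA METH 4 or SVZ METH 2, at 0.91 to 1.00. Tsen15, a tRNA splicing subunit, had the smallest p of 0.000286 at a difference of -0.59, and Lrrn2 was at 0.58. None of them was called as differing between treatments.

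**Figure D5:**
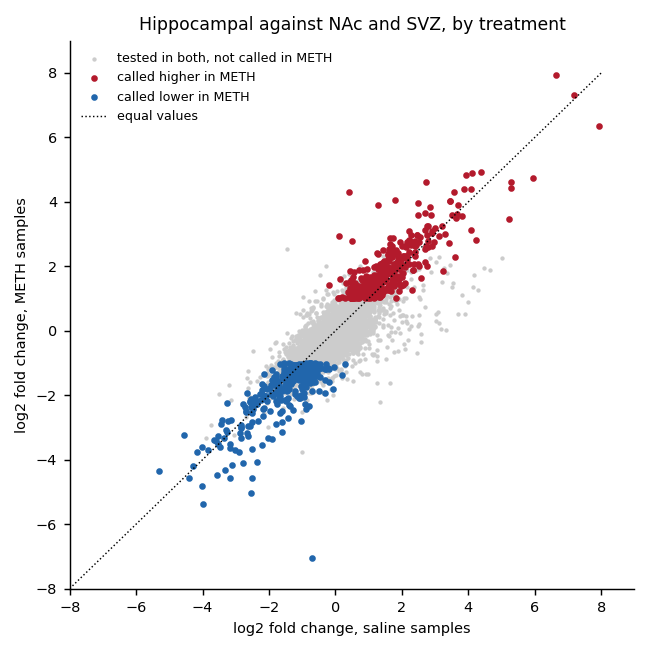
Log2 fold change, hippocampal against NAc and SVZ, in saline samples (horizontal) and METH samples (vertical), with one point a gene tested in both, red where called higher and blue where called lower in METH, and a dotted line of equal values. Most of the called genes lie near the line, and Avp lies far below it at -7.04 in METH.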

How the data were processed

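RNA-seq was done on the 4 regions of METH and saline rats, and the 16 METH and 16 saline samples were grouped by title. The authors trimmed reads, aligned them to rn6 and deposited raw counts per gene, made per the file headers with featureCounts 1.6.3 without strand and without later normalization. The submitters' processing notes name cutadapt 2.7, FastQC 0.11.4 and STAR 2.5.2b. The headers name an Ensembl annotation and the study's methods a UCSC one. Without strand, overlapping genes on opposite strands share reads, and whether related genes such as the kallikreins traded any was not tested.

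From the counts of 28914 genes, those passing filterByExpr were kept, libraries were scaled by their upper quartile, and edgeR 4.0.16 (limma 3.58.1, R 4.3.3) fitted the 4 METH regions as groups with a quasi-likelihood model. The contrast was the mean of DG and CA minus the mean of NAc and SVZ, called at an adjusted p under 0.01 and above 2-fold, as in the study. The same was done for the saline samples, and a fit of all samples gave the difference. CPM divides a count by the scaled library size, so that 1 read was worth 0.0463 to 0.0939 CPM. A floor of 3 counts was set for folds against zero reads. The ratios of Klk8 and Klk11, against 2 and 1 reads, lie under it and are given with counting intervals. The Klk8 log2 fold change of 7.93 in METH rests on the same few reads. Procedures were tested on simulated data. Named genes were the 10 largest changes with separated groups and a mean of at least 5 CPM and the 5 smallest p-values in each direction, the study's named genes, 2 to 4 examples a list, and 5 in each direction of the difference, and further list members, Klk11, Gad1, Slc32a1, Camk2a, Nrgn and Prox1 were chosen after their values were seen. Members and gene lists were chosen with earlier results of these data known.

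Alternatives were 1.5-fold, FDR 0.05, TMM, DESeq2 1.42.0, no filter or 1 CPM in 4 samples, the replicate block, RUVr with 1 or 2 factors (the study does not state the number), the RNA integrity number as covariate, summing SVZ libraries with the same number, a fit of 2 groups, and leaving out each library. Chosen after seeing the data were sets of libraries left out together, and a fit without SVZ with and without the sequencing run as read from the headers. Replicates were not copies of one library, since chi-square per gene was 15.4 to 134.4 over 24 pairs. Of 13 strings counted in RefSeq promoters, 3 are shown. Counts were summarised with Python 3.11.15, numpy 2.4.6 and pandas 2.3.3 and drawn with matplotlib 3.10.9. Counting intervals and floors cover counting error only. Some items are not reported here.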

Additional observations from a re-analysis of the deposited data

Results flagged for a closer look

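In each region's 4 METH samples, 14 marker sums and 20 genes were searched for a sample far from the other 3. Of 136 sets 31 held one, each on the high side. The limit used gives about 1 in 20 for a single set of normally distributed values. CPM values need not be so distributed, and a single read against none, as for Klk8, passes it by itself. The rate may thus not hold here, and these sets share samples, so no rate for all of them was derived.
Among marker sums, oligodendrocyte markers summed to 9288 CPM in CA METH 1 and 14220 in NAc METH 3, endothelial markers to 337.4 in SVZ METH 2, and ependymal markers to 515.3 in DG METH 3. Choroid plexus markers summed to 6952 in DG METH 3, 404.1 in CA METH 2 and 9033 in SVZ METH 3. Thalamic markers reached 472.0 in NAc METH 3 and cortical markers 1093 in CA METH 1.
SVZ METH 1 stood apart for 8 genes of the hippocampal side, at 45.5 CPM for Neurod6, 26.8 for Neurod2, 21.3 for Bhlhe22, 19.0 for Cabp7, 12.2 for Rspo2, 4.49 for Mas1, 3.85 for Slc9a4 and 0.0534 for Klk8, the last a single read where the other 3 SVZ libraries held none. NAc METH 3 stood apart for Bhlhe22 at 10.7 CPM and NAc METH 2 for Klk8 at 0.0861, again 1 read against none. Within the hippocampal groups DG METH 4 was high for Cabp7 at 324 and Slc9a4 at 67.1, and CA METH 1 for Lyzl4 at 7.60.
Among genes of the other side, CA METH 3 was high for Lhx8 at 1.43 CPM, Chat at 2.27, Isl1 at 2.08, Six3 at 4.93 and Sv2c at 39.0. DG METH 3 was high for Lhx8 at 0.281, Isl1 at 3.89 and Six3 at 5.63, and NAc METH 3 for Slc18a3 at 19.2. CA METH 3 and DG METH 3 were thus the hippocampal libraries with the most RNA of Lhx8, Isl1 and Six3. Their levels lay below those of every NAc and SVZ sample, which the choice of genes with separated groups required.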

How the results depend on the processing

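The METH comparison kept its count within 1.5 times of 729 under TMM (743), DESeq2 (972), no filter (733), 1 CPM in 4 samples (707), FDR 0.05 (1090), RUVr (943 and 1003), the RNA integrity number (527) and summed SVZ libraries (784). It moved to 1286 at 1.5-fold, to 399 without DG METH 1 and 2, and to 283 without SVZ and with the sequencing run as covariate (610 without that covariate), and ran from 560 (without CA METH 4) to 919 (without SVZ METH 1) with 1 library left out. A run term could not be estimated with SVZ in the fit. The replicate block gave 690. Replicate numbers did not set pairs apart: deviations from the group mean correlated at -0.41 to 0.37 between same-numbered samples and at -0.30 to 0.42 between others. Such correlations cannot show whether samples share a rat, because single libraries also differed in their markers. Samples of different regions with the same library number correlated at -0.11 to 0.27. A block on that number cannot be estimated with SVZ in the fit, whose numbers occur in no other region, and was not run without SVZ. For the pairs, DESeq2 called 845 (DG against NAc), 1031 (DG against SVZ), 516 (CA against NAc) and 1197 (CA against SVZ), and summing SVZ libraries gave 366 for CA against NAc. With 1 library left out they ran from 253 (DG METH 4) to 566 (SVZ METH 1), from 292 (DG METH 4) to 922 (SVZ METH 1), from 51 (NAc METH 2) to 316 (NAc METH 3) and from 147 (CA METH 4) to 1134 (SVZ METH 1). The saline count of 155 moved to 242 at 1.5-fold, 649 at FDR 0.05, 632 with DESeq2, 38 with the replicate block, 443 and 560 with RUVr, 0 with the RNA integrity number and 0 without DG Sal 1 and 2, and ran from 0 to 594 (without DG Sal 3) with 1 library left out. Of the METH calls 472 were higher and 271 lower with TMM, and 344 and 183 with the RNA integrity number. The METH against saline difference held 0 calls in every fit run. Signs changed for 7 named genes. Rnft1 gave -0.01933 to 0.04415 with single libraries left out, -0.00062 in a fit of 2 groups, -0.0450 without NAc METH 3 and DG METH 3, -0.0483 without SVZ METH 2 and 4, -0.0174 without DG METH 3 and SVZ METH 3, -0.18 without SVZ and -0.12 with the run term. Hdac5, at -0.08, gave 0.0203 without SVZ METH 2 and 4. Without SVZ, then also with the run term, P2rx6 gave 0.24 and 0.43 (-0.63 with all samples, not called), Top2a 0.63 and 0.45 (-1.33, not called) and Tenm4 -0.0364 and -0.11, and with the run term P3h4 gave 0.0418 and Prkcd, called at -2.19 with all samples, 0.22. The cause of these changes was not tested. At these depths, with 1 read worth 0.0463 to 0.0939 CPM, genes such as Klk8 and Lhx8 are limited by counts of a few reads.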

Other observations

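Several genes separated the groups without belonging to the lists described above. RGD1306556 ran from 189 to 294 CPM in the hippocampal METH samples and from 42.9 to 96.2 CPM in the NAc and SVZ samples, with a log2 fold change of 1.87 ± 0.15. Arpc5, a subunit of the actin-branching Arp2/3 complex, ran from 76.7 to 154 CPM against 40.8 to 61.2, at 1.23 ± 0.09. On the other side Pcp4l1, a calmodulin-binding peptide relative, ran from 8.40 to 26.5 CPM against 41.0 to 262, at -3.18 ± 0.36, and the synaptic vesicle protein Sv2c from 8.17 to 39.0 against 46.9 to 141, at -2.54 ± 0.35. The receptor phosphatase Ptprm ran from 33.4 to 65.9 CPM against 81.1 to 125 at -1.02 ± 0.10. Its groups lay apart, and its fold change was so close to the threshold that the call was lost without NAc METH 2, DG METH 1, DG METH 4, CA METH 2, CA METH 4 or SVZ METH 2, at -0.99 to -0.96. Etv5, an ETS factor, does belong to the activity-induced list and to the genes named in the study. It lay on the other side of that threshold, at 66.8 to 145 CPM against 26.0 to 59.8. Its log2 fold change was 0.97 (edgeR adjusted p = 0.000545), and it was not called although the groups did not overlap.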
